A study of Mus musculus with 12 samples.

Results

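The 3 arrays of mice infused with saline for 15 days were set against the 3 arrays of mice infused with saline for 5 days, which shows how vehicle muscle differs between these times on the pump. They are 6 of the study's 12 arrays and were chosen by their titles. Of the 45281 probes on the array, the 17758 with a detection p-value under 0.05 on at least 3 of these 6 arrays were compared. RNA came from the triceps brachii of the forelimb of male mice of strain C57BL/6J, labelled 12 weeks old and kept singly on the purified diet AIN-93G. All groups carried an osmotic pump under the skin, a capsule that releases fluid at a steady rate. The groups were 20-hydroxyecdysone (20E, an insect moulting steroid, 5 mg/kg/day) for 15 and for 5 days, and saline for 15 and for 5 days. Each array held RNA pooled from 3 animals, 1 µg from each, apart from 1 pool of a saline group lettered B that held 2 animals. B is the letter of the 15-day columns, and the sources used here do not say which of these 3 pools is meant. The spread between arrays is therefore that between pools, and p-values measure only this spread. Time on the pump cannot be told apart here from time since surgery or from age at collection. Whether the hour of collection or feeding before it differed between the durations was not tested.

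Skeletal muscle keeps its own circadian clock, in which a pair of activators (ARNTL and CLOCK) bind E-box sequences and switch on genes that later repress them, such as the Per and Cry genes, Nr1d1 and Ciart. Heat shock proteins are chaperones that muscle makes after strain or protein damage. Muscle wasting is known for the ubiquitin ligases Trim63 and Fbxo32, and developing or regrowing muscle for cardiac actin (Actc1) and the regulator Myod1.

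The fast fibre genes that define this muscle were bright on every array, with a mean linear intensity between 39940.2 and 41326 on the 15-day arrays and between 39555 and 41308 on the 5-day arrays. Between 17106 and 18861 probes were detected on an array. On 15-day replicate 1, 112 probes were more than 2-fold above all of the other 5 saline arrays, and on 5-day replicate 2, 268 were. On each of the other 4 arrays 0 or 1 were. The 112 probes included genes known for liver, and the 268 included genes known for leukocytes and lymphoid tissue, both listed after the values had been seen. The other lists below were also chosen with earlier results of these data known, so their counts are a description. Apoa1, the main protein of high-density lipoprotein, had log2 levels of 12.02, 9.58 and 7.44 on the 15-day arrays, against 6.98, 6.76 and 7.26 on the 5-day arrays. Cd52, a surface protein of lymphocytes, had log2 levels of 6.42, 6.57 and 7.15 on the 15-day arrays, against 6.65, 11.66 and 6.32 on the 5-day arrays. The part of these transcripts in the differences below was not tested, and the main results are given with and without these 2 arrays.

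No probe passed an adjusted p of 0.05 in the saline comparison. The lowest limma adjusted p was 0.0515, shared by both probes of Actc1. Muscle of 15 days had higher Actc1, G0s2, Hspa1a, Dnajb1 and Myod1, and lower Ciart, Gstt2, Gadd45b and Srsf5, by 1.60- to 2.74-fold, none of them past the adjusted threshold. An unadjusted p under 0.05 was reached by 1393 probes, 7.84% of those tested against a nominal 5%. Of these, 778 (4.38% of all) were higher and 615 (3.46%) lower at 15 days. Scaling each array by its median in place of quantile normalization moved the median of all differences to -0.0712 on the log2 scale and left 16.5% of the probes at an unadjusted p under 0.05 higher at 15 days, against 55.9% here. The groups did not overlap for 2387 probes (13.4%), of which 1330 (7.49%) were higher and 1057 (5.95%) lower. With so few arrays a group, some probes separate completely without any difference between the durations. Non-overlap is therefore given as a description, also for genes named by a small p. The median 95% interval reached 0.294 log2 units to either side, and for 96.2% of the probes it excluded a 2-fold difference in either direction. In 5 bins of brightness the count called was 0 throughout.

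The size of the difference between the durations by brightness depended on the background correction. Brightness was the mean log2 intensity over the 6 arrays, and each of the 5 bins held 3551 or 3552 probes. The median size of the difference was 0.151 log2 units in the dimmest bin, then 0.138, 0.112 and 0.0896, and 0.0751 in the brightest. Without background correction the order turned round, with 0.0484 in the dimmest and 0.0713 in the brightest bin. The median SD within a group was 0.248, 0.217, 0.160, 0.123 and 0.0996 in the same order. The share of probes whose groups did not overlap increased with brightness, from 9.94% in the dimmest bin through 11.6%, 13.8% and 15.6% to 16.3% in the brightest. The share at an unadjusted p under 0.05 was 7.97%, 8.33%, 8.62%, 8.02% and 6.28% in the same order. In the dimmest bin 30.4% of the probes were detected on all 6 arrays, and in the other bins at least 98.3% were. Just inside the detection limit, 902 probes were detected on 3 of the 6 arrays, with a median level of 5.09. Just outside it, 1277 probes were detected on 2 arrays, with a median level of 4.98.

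**Figure D1:**
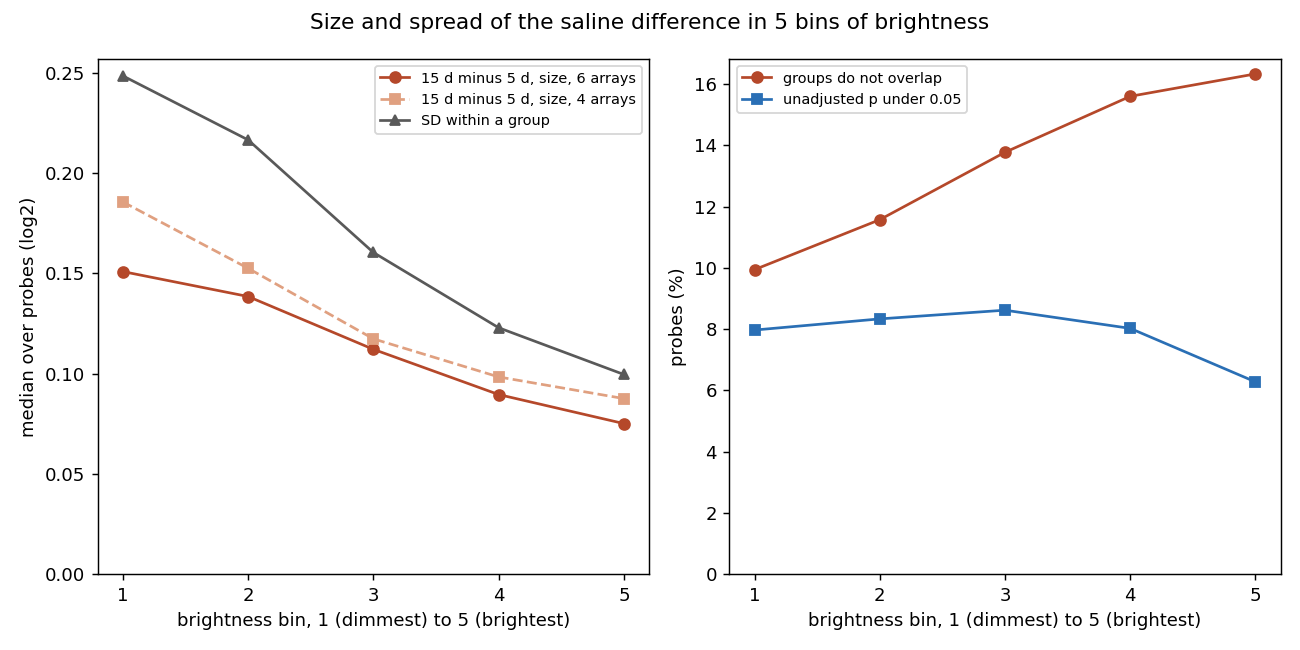
Left, the median size of the difference between 15 and 5 days of saline with 6 arrays and with 4, and the median SD within a group (all log2), in 5 bins of mean intensity. Right, the percentage of probes in each bin whose groups did not overlap or that had an unadjusted p under 0.05. The size runs from 0.151 in the dimmest bin to 0.0751 in the brightest with background correction, and the SD from 0.248 to 0.0996.

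Without 15-day replicate 1 and 5-day replicate 2, 0 probes passed and the lowest limma adjusted p was 0.533. An unadjusted p under 0.05 was then reached by 1150 probes (6.48%), and 592 probes were under it in the same direction with and without these arrays. With 2 arrays a group the median size of the difference was larger in each bin, at 0.186 in the dimmest and 0.0876 in the brightest. Differences beyond 2-fold went the other way. They numbered 130 (0.732%) over the 6 arrays, 88 higher and 42 lower at 15 days, and 45 without the 2 arrays, 41 higher and 4 lower. Of the 88, 83 had their highest value on 15-day replicate 1. Of the 42, 39 had theirs on 5-day replicate 2. Both sets of arrays shared 35 of the probes beyond 2-fold higher and 3 of those lower.

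**Figure D2:**
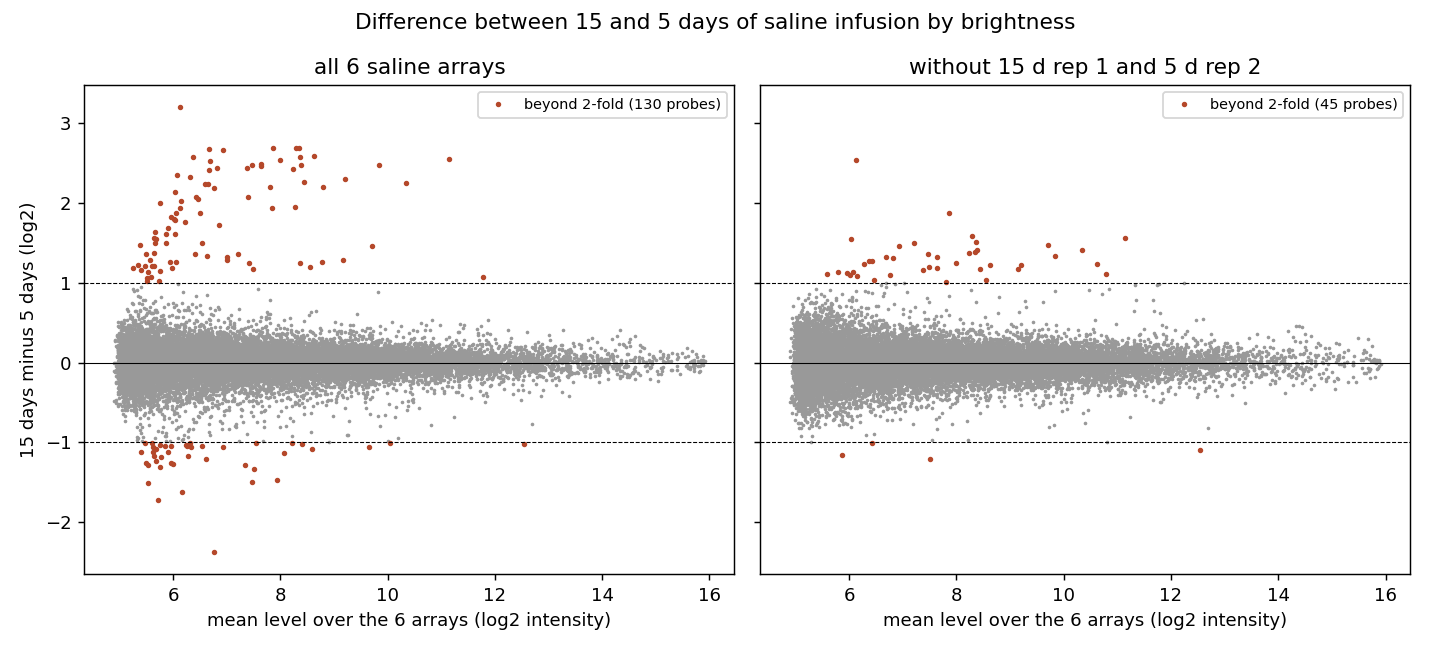
Each point is a probe, with its mean log2 intensity over the 6 saline arrays across and the log2 difference of 15 minus 5 days upward, over all 6 arrays (left) and without 15-day replicate 1 and 5-day replicate 2 (right). Dashed lines mark 2-fold. 130 probes lie beyond them on the left and 45 on the right.

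Actc1 encodes cardiac alpha-actin, the actin of heart and of fetal skeletal muscle. Its brighter probe (ILMN_2598916) had log2 levels of 12.34, 12.20 and 12.42 on the 15-day arrays, against 11.28, 11.08 and 11.38 on the 5-day arrays. The other (ILMN_2767216) had 9.41, 8.92 and 9.15 on the 15-day arrays, against 7.78, 7.86 and 8.23 on the 5-day arrays. All 15-day arrays lay above all 5-day arrays on both probes. The differences were 1.07 ± 0.13 and 1.20 ± 0.14 (log2, ± SE), or 2.10- and 2.30-fold, each with a limma adjusted p of 0.0515. On the 4 arrays left without the 2 they were 0.98 and 1.03, with limma adjusted p of 0.533 for both. Leaving out each saline array in turn gave 0.99 to 1.14 and 1.08 to 1.34. Of 29 other settings tried, the brighter probe passed the threshold under 8 and the other under 9, the lowest limma adjusted p being 0.000462. In each count 1 setting was the main fit with the threshold raised to 0.10. Some of the 29 settings left a duration with 1 saline array. The promoter of Actc1 is shown because it is the leading gene, as 250 bases before the annotated start, chr2:114052876-114053125 on the minus strand (RefSeq, GRCm38.p6). The capitals mark a CArG box, the site of serum response factor, which begins 47 bases before the start. Its pattern is symmetric, so that 1 search covers both strands. It occurs in 1.47% of 32851 promoters of the same length.
Actc1: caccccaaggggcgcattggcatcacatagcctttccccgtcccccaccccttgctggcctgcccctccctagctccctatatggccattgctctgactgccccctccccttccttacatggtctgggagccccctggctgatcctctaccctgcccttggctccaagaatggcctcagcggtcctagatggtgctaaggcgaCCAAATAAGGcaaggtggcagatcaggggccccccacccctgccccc

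Myod1 is a transcription factor that commits cells to muscle. Its log2 levels were 8.14, 8.40 and 8.03 on the 15-day arrays, against 7.43, 7.12 and 7.68 on the 5-day arrays. Every 15-day array was above every 5-day array, by 0.78 ± 0.16 (log2, ± SE, limma adjusted p = 0.381), and by 0.66 without the 2 arrays. Of the 7 genes of embryonic and regenerating muscle detected on all 6 arrays, Actc1 and Myod1 were at an unadjusted p under 0.05, both higher, and their list's median was 0.00212, against 0.00641 over all 8670 such genes. Over those genes 4.5% were higher and 3.41% lower at that p. Myh8, the perinatal myosin, had a difference of -0.17 ± 0.19, and Chrna1, a subunit of the acetylcholine receptor, had 0.15 ± 0.0982 (log2, ± SE). Myog, the differentiation factor, was detected on 5 of the 6 arrays.

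G0s2, an inhibitor of the lipase that starts triglyceride breakdown, had log2 levels of 10.13, 10.57 and 10.58 on the 15-day arrays, against 9.06, 8.72 and 9.14 on the 5-day arrays. All 15-day arrays were above all 5-day arrays, by 1.45 ± 0.25 or 2.74-fold (limma adjusted p = 0.334), and without the 2 arrays by 1.47. Its difference was the largest of the 12 higher probes with the smallest p. Among the dimmer of the 12, Tmem218, a ciliary membrane protein, had levels of 6.65, 6.68 and 6.84 on the 15-day arrays, against 5.99, 5.82 and 6.16 on the 5-day arrays. It differed by 0.73 ± 0.11 (limma adjusted p = 0.122). Rpusd3, a mitochondrial RNA pseudouridine synthase, differed by 0.58 ± 0.11, and Slc25a36, a mitochondrial nucleotide carrier, by 0.72 ± 0.15 (log2, ± SE, limma adjusted p = 0.381 for both). Ret, the receptor of glial-derived growth factors, differed by 0.75 ± 0.16, and Krt10, a keratin of skin, by 0.40 ± 0.0878, at the same adjusted p from limma. In each of these 5 genes the groups did not overlap. Dropping the 2 arrays gave 0.68, 0.53, 0.71, 0.65 and 0.39 in the order given.

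**Figure D3:**
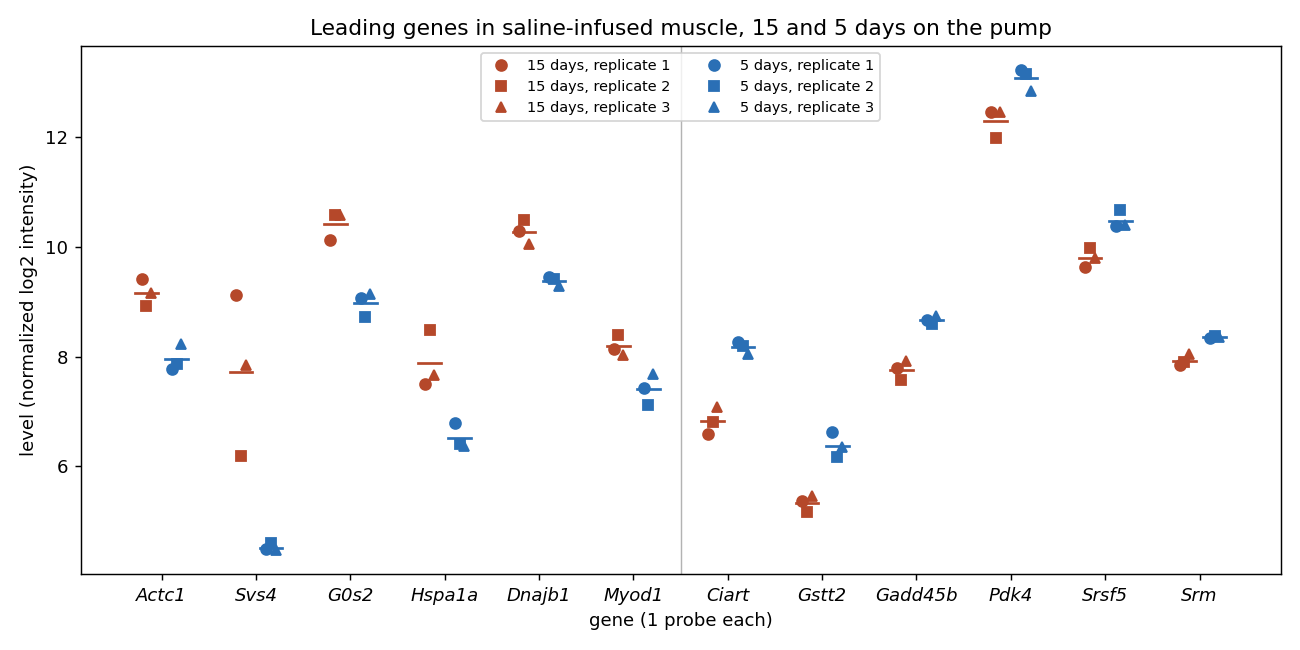
Normalized log2 intensity of 12 genes, 1 probe each, on the 15-day arrays (red, left of each pair) and the 5-day arrays (blue, right), with bars at the group means and a symbol for each replicate number. The groups do not overlap in any of the 12. Actc1 at the left edge averages 9.16 at 15 days and 7.96 at 5 days on the probe shown.

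Among the lower genes, a probe of Ciart, described with the clock genes, had the smallest p. Gstt2, a glutathione transferase, had log2 levels of 5.37, 5.18 and 5.46 on the 15-day arrays, against 6.62, 6.17 and 6.35 on the 5-day arrays. Every 15-day array was below every 5-day array, by -1.04 ± 0.16 (log2, ± SE, limma adjusted p = 0.135), and by -1.16 without the 2 arrays. Gadd45b, a stress-induced gene that acts on growth arrest and DNA demethylation, had 7.79, 7.57 and 7.93 on the 15-day arrays, against 8.68, 8.60 and 8.75 on the 5-day arrays. It differed by -0.91 ± 0.19 (limma adjusted p = 0.381), and by -0.97 without the 2 arrays. Srsf5, a splicing factor, had 9.63, 9.97 and 9.80 on the 15-day arrays, against 10.37, 10.66 and 10.39 on the 5-day arrays, and differed by -0.68 ± 0.14 (limma adjusted p = 0.381). Its difference without the 2 arrays was -0.50. The groups did not overlap in any of these genes.

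The other lower probes with the smallest p were Sgpl1, which degrades sphingosine phosphate, at -0.61 ± 0.13, Poli, a DNA repair polymerase, at -0.61 ± 0.13, and Bclaf1, an RNA-binding regulator of transcription, at -0.51 ± 0.11 (log2, ± SE). Rnf169, a ubiquitin ligase of the DNA damage response, differed by -0.48 ± 0.11, Cir1, a corepressor, by -0.67 ± 0.15, and Panx1, a channel protein, by -0.51 ± 0.11. The limma adjusted p was 0.381 for these 6 genes, and the groups did not overlap in any of them. Among the brighter probes, Inmt, a methyltransferase of indoles, had 10.21, 10.005 and 9.99 on the 15-day arrays, against 10.63, 10.70 and 10.64 on the 5-day arrays, and Srm, the enzyme that makes spermidine, had 7.85, 7.89 and 8.05 on the 15-day arrays, against 8.34, 8.38 and 8.35 on the 5-day arrays. Their differences were -0.59 ± 0.13 and -0.43 ± 0.10, each at a limma adjusted p of 0.381, with every 15-day array lower.

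Most circadian clock genes had lower values at 15 days, none past the adjusted threshold. Of its 17 genes, 12 were detected on all 6 arrays. At an unadjusted p under 0.05 there were 6 lower (Ciart, Bhlhe40, Dbp, Per1, Nr1d1 and Per3) and 1 higher (Arntl), against 3.41% lower and 4.5% higher over all genes detected on all 6 arrays. The list's median was -0.27, against 0.00641 over all those genes, and it lay between -0.31 and -0.21 with any 1 of the 6 arrays left out and at -0.36 without the 2 arrays. Its median was -0.34 with median scaling, where that of all tested probes was -0.0712. In 5 of the 12 every 15-day array was below every 5-day array, against 6.66% of all such genes. On the 4 arrays left without the 2, 5 were lower and 1 higher at that p, against 2.55% and 2.66%. Npas2, Cry1, Hlf and Bhlhe41 were detected on fewer than 3 arrays.

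Ciart, a repressor that binds the clock's activators, had log2 levels of 6.59, 6.82 and 7.09 on the 15-day arrays, against 8.27, 8.19 and 8.05 on the 5-day arrays on its leading probe (ILMN_3102736). The probe ILMN_3029489 had 6.92, 7.04 and 7.16 on the 15-day arrays, against 8.09, 7.998 and 8.04 on the 5-day arrays, and ILMN_1236079 had 5.70, 6.20 and 5.55 on the 15-day arrays, against 6.75, 6.91 and 6.82 on the 5-day arrays. On all 3 probes every 15-day array was below every 5-day array. The differences were -1.34 ± 0.20, -1.004 ± 0.17 and -1.01 ± 0.19 (log2, ± SE), so 5-day levels were 2.53, 2.01 and 2.01 times those of 15 days. Their limma adjusted p were 0.122, 0.253 and 0.381. Without the 2 arrays the differences were -1.21, -0.97 and -0.91.

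Arntl, the activator itself, had log2 levels of 6.89, 7.01 and 6.54 on the 15-day arrays, against 5.93, 6.17 and 6.44 on the 5-day arrays. It was higher on each 15-day array, by 0.63 ± 0.20 (log2, ± SE, limma adjusted p = 0.464). Its partner Clock differed by -0.0298 ± 0.0927. Dbp, a transcription factor driven by the clock and the brightest gene of the list, had 12.56, 12.59 and 12.77 on the 15-day arrays, against 13.09, 12.97 and 13.12 on the 5-day arrays, a difference of -0.42 ± 0.11 with no overlap (limma adjusted p = 0.409). Bhlhe40, a repressor that binds E-boxes, had 11.20, 11.14 and 11.20 on the 15-day arrays, against 11.45, 11.45 and 11.49 on the 5-day arrays and differed by -0.28 ± 0.0723 (limma adjusted p = 0.404). Per1 and Per3, of the negative arm, differed by -0.30 ± 0.12 and -0.37 ± 0.17, again with no overlap. Nr1d1, the repressor of Arntl, differed by -0.48 ± 0.21, and 1 of its 15-day arrays overlapped the 5-day ones. Per2 and Tef, a relative of Dbp, differed by 0.0502 ± 0.11 and 0.00247 ± 0.15. Cry2 and Nr1d2 differed by -0.25 ± 0.12 and -0.19 ± 0.14 over the 6 arrays, and by -0.45 and -0.41 without the 2 arrays.

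The promoters of Ciart and Per1 are shown because they carry the clock's E-box among the genes that were lower. Both are the 250 bases before an annotated start in RefSeq, GRCm38.p6, Ciart at chr3:95882229-95882478 on the minus strand and Per1 at chr11:69098699-69098948 on the plus strand. Capitals mark CACGTG, which reads the same on both strands. It begins 116, 58 and 44 bases before the start of Ciart and 166 bases before that start of Per1, whose other annotated start has none.
Ciart: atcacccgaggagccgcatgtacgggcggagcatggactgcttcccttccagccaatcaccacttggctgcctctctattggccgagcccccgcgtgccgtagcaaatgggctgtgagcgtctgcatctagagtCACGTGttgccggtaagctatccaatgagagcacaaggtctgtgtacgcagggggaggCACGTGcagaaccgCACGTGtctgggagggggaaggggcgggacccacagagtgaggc
Per1: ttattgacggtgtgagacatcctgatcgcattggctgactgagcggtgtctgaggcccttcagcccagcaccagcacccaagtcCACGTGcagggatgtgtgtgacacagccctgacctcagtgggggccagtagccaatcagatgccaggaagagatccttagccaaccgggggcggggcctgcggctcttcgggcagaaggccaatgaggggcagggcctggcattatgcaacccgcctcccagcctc
CACGTG was found in 6.02% of 32851 promoter windows of 250 bases, and 6.86% of 27025 genes had it in at least 1 window. Of the 12 clock genes detected on all arrays 10 were in the table, and 3 of these genes held it (4 of 15 windows), the third being Tef.

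Of the 15 genes of heat shock and the unfolded protein response, 14 were detected on all 6 arrays. At an unadjusted p under 0.05, 4 were higher at 15 days (Dnajb1, Hspa1a, Hsp90aa1 and Cryab) and 0 lower, against 4.5% and 3.41% over all genes. The list's median was 0.19, and 0.0947 with median scaling, where the median of all tested probes was -0.0712. In Dnajb1 and Hspa1a every 15-day array was above every 5-day array, against 8.27% of all such genes. Hspa1a, the stress-inducible member of the Hsp70 chaperones, had log2 levels of 7.50, 8.49 and 7.66 on the 15-day arrays, against 6.79, 6.42 and 6.37 on the 5-day arrays. The groups did not overlap and 15-day replicate 2 was the highest. The difference was 1.36 ± 0.29 or 2.56-fold (limma adjusted p = 0.381), and 1.49 without the 2 arrays. Its near-identical neighbour Hspa1b, on its own dim probe, had 5.90, 6.16 and 6.08 on the 15-day arrays, against 6.06, 5.69 and 5.80 on the 5-day arrays and differed by 0.20 ± 0.17, with overlap. The signal cannot be assigned to either copy with certainty.

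Dnajb1, a cochaperone of Hsp70, had log2 levels of 10.28, 10.49 and 10.05 on the 15-day arrays, against 9.45, 9.42 and 9.29 on the 5-day arrays. It was higher on every 15-day array, by 0.89 ± 0.17 (log2, ± SE, limma adjusted p = 0.381), and by 0.90 without the 2 arrays. Hsp90aa1, the inducible Hsp90, differed by 0.60 ± 0.17, and Cryab, a small heat shock protein of the sarcomere, by 0.31 ± 0.14. Both overlapped between the groups, and their limma adjusted p were 0.441 and 0.630. The abundant Hspa8, the constitutive Hsp70, differed by 0.11 ± 0.0980. Of the genes of the endoplasmic reticulum response, Hsp90b1 differed by 0.00284 ± 0.0909, Xbp1 by -0.0383 ± 0.0931 and Atf4 by -0.00790 ± 0.0868. Pdia4, the lowest of the list, differed by -0.11.

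The promoter of Hspa1a is shown for its heat shock element, as the 250 bases before the start at chr17:34972157-34972406 on the minus strand (RefSeq, GRCm38.p6). The motif searched was GAANNTTC or TTCNNGAA, both patterns are symmetric and so cover both strands, and the capitals begin 104 bases before the start.
Hspa1a: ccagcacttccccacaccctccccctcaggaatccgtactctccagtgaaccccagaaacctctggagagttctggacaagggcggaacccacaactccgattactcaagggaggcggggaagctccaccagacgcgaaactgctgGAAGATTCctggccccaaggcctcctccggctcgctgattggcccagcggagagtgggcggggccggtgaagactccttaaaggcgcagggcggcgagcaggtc
One form or the other was found in 12.8% of the promoter windows and in 14.5% of the genes. Of the heat shock genes with a window, 4 of 11 held it (5 of 13 windows), and Dnajb1, with a pair of annotated starts, did not.

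**Figure D4:**
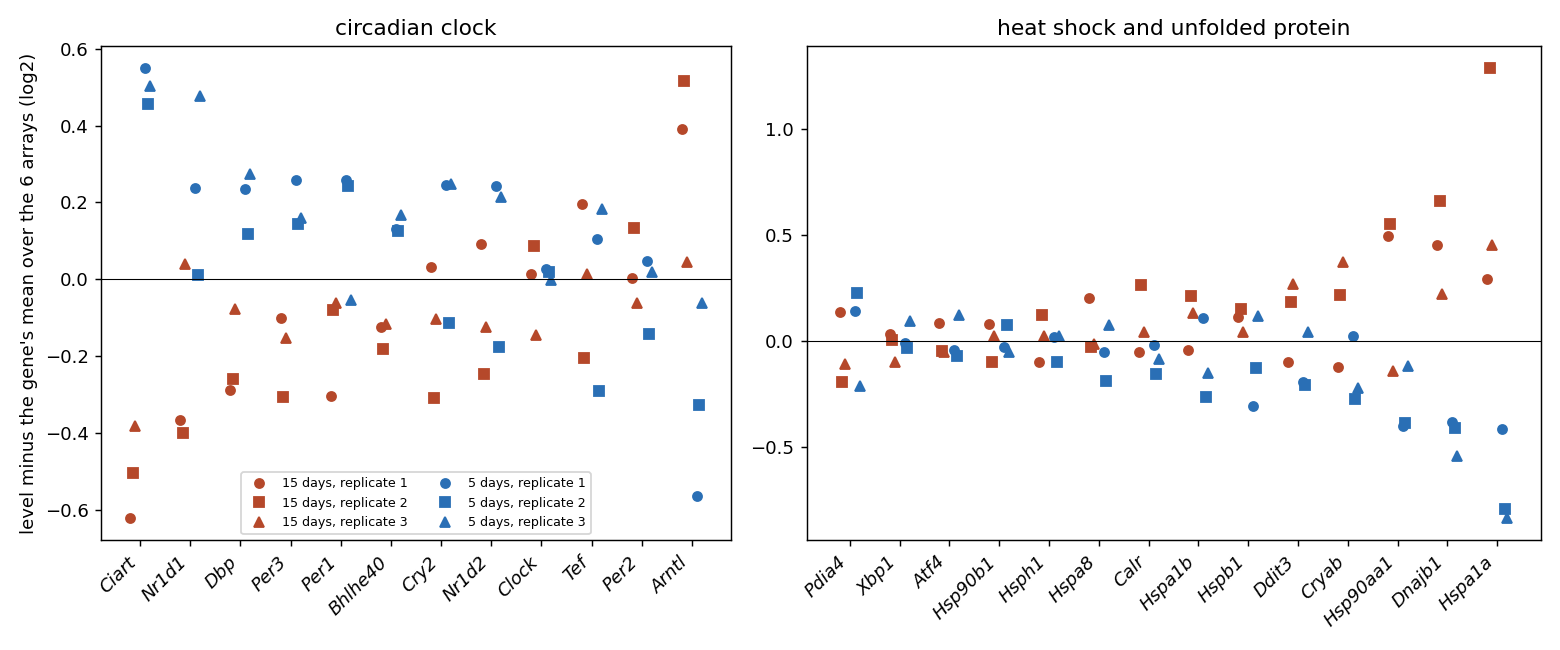
Log2 level of each gene minus its mean over the 6 saline arrays, with 15-day arrays in red to the left and 5-day arrays in blue to the right of each gene, for the 12 clock genes (left panel) and 14 heat shock genes (right panel) detected on all 6 arrays. Ciart is shown by its brightest probe. Genes run from the most negative to the most positive difference, Ciart to Arntl at 0.63, and Pdia4 at -0.11 to Hspa1a at 1.36.

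Among the 9 genes of muscle wasting detected on all 6 arrays, 3 were lower at 15 days at an unadjusted p under 0.05 and 0 higher, against 3.41% and 4.5% over all genes detected on all 6 arrays. Without the 2 arrays 1 was lower and 0 higher, against 2.55% and 2.66%. Trim63, a ubiquitin ligase of the sarcomere, had 11.07, 11.27 and 11.20 on the 15-day arrays, against 11.50, 11.67 and 11.59 on the 5-day arrays. It was lower on every 15-day array, by -0.41 ± 0.10 (log2, ± SE, limma adjusted p = 0.381), and by -0.31 without the 2 arrays. Fbxo32, the other ligase of wasting muscle, had 10.70, 10.41 and 11.58 on the 15-day arrays, against 11.64, 11.40 and 11.71 on the 5-day arrays. It differed by -0.68 ± 0.28 (limma adjusted p = 0.599), with 15-day replicate 3 inside the 5-day range. Gabarapl1, of the autophagosome, differed by -0.26 ± 0.11, and Foxo1, a transcription factor upstream of both ligases, by -0.14 ± 0.22. The list's median was -0.13, and it was -0.21 with median scaling, where the median of all tested probes was -0.0712.

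In growth signalling, 3 of 11 genes were lower at that p and 0 higher, against the same 3.41% and 4.5%. Without the 2 arrays 2 were lower and 0 higher, against 2.55% and 2.66%. Igf1r, the receptor of insulin-like growth factor, had 8.17, 8.12 and 8.14 on the 15-day arrays, against 8.52, 8.51 and 8.44 on the 5-day arrays, without overlap, and differed by -0.34 ± 0.0961. Eif4ebp1, a brake on translation that mTOR releases, differed by -0.38 ± 0.13, without overlap. Acvr2b, the receptor of myostatin, differed by -0.32 ± 0.12, with overlap. Their limma adjusted p were 0.434, 0.524 and 0.560.

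In energy metabolism, Pdk4, which shuts off pyruvate oxidation, had log2 levels of 12.46, 11.98 and 12.45 on the 15-day arrays, against 13.22, 13.15 and 12.84 on the 5-day arrays. It was lower on every 15-day array, by -0.77 ± 0.23 (log2, ± SE, limma adjusted p = 0.460), and by -0.82 without the 2 arrays. It was 1 of 15 genes of fatty acid oxidation. At an unadjusted p under 0.05, 1 of these was lower and 1 higher, against 3.41% and 4.5% of all genes. The higher was Lpl, lipoprotein lipase, at 0.22 ± 0.0888. Of 13 genes of oxidative phosphorylation 3 were higher and 0 lower, against 4.5% and 3.41% of all genes over the 6 arrays. The counts were the same without the 2 arrays, against 2.66% and 2.55%. Ndufb5, of complex I, differed by 0.25 ± 0.0935, Sdhb, of complex II, by 0.19 ± 0.0857, and Cox7a1, of complex IV, by 0.19 ± 0.0792, each without overlap. Their limma adjusted p were 0.586, 0.626 and 0.614. None of 11 glycolysis genes and none of 8 genes of sterol and lipid synthesis was at that p.

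Of 18 collagen and matrix genes, 3 were higher and 0 lower at an unadjusted p under 0.05, against 4.5% and 3.41% of all genes. Without the 2 arrays 1 was higher and 0 lower, against 2.66% and 2.55%. Fn1, fibronectin, differed by 0.34 ± 0.12, Col15a1, a basement membrane collagen, by 0.27 ± 0.0978, and Col6a2, a chain of collagen VI, by 0.34 ± 0.13 (log2, ± SE), without overlap. Their limma adjusted p were 0.549, 0.564 and 0.583. The list's median was 0.0251 and turned to -0.0253 with median scaling, where the median of all tested probes was -0.0712. Of 10 interferon genes, Ifit2 and Oasl2 were lower at that p, by -0.53 ± 0.19 and -0.32 ± 0.14, against 3.41% of all genes. Without the 2 arrays 1 gene was lower, against 2.55%. That list's median of -0.26 was -0.0287 without 5-day replicate 2. Of 13 genes that glucocorticoids induce, Pdk4 and Per1 were lower at that p, against 3.41% of all genes. Lcn2, an iron-binding protein of inflammation, was higher, against 4.5%. Without the 2 arrays 1 of the 13 was lower and 0 higher, against 2.55% and 2.66%. Lcn2 had 6.88, 6.13 and 5.81 on the 15-day arrays, against 5.54, 5.71 and 5.35 on the 5-day arrays, highest on 15-day replicate 1, and differed by 0.73 ± 0.27 (limma adjusted p = 0.571), and by 0.52 without the 2 arrays. It was also the 1 gene of 6 in the acute phase list at that p, against 4.5% higher over all genes. None was without the 2 arrays.

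Slow fibre genes depended on single arrays. Myl2, the light chain of slow and cardiac myosin, had log2 levels of 11.94, 12.66 and 12.75 on the 15-day arrays, against 12.61, 12.70 and 10.82 on the 5-day arrays. The low array was 5-day replicate 3, and 15-day replicate 1 was the next lowest. Csrp3, a stretch-sensing protein of slow and cardiac muscle, had 9.97, 11.82 and 11.20 on the 15-day arrays, against 11.03, 10.97 and 9.77 on the 5-day arrays. The mean linear intensity of the 11 slow fibre genes was 2306, 3545 and 3476 on the 15-day arrays, against 3152, 3308 and 1390 on the 5-day arrays. None of the 11 was at an unadjusted p under 0.05 over the 6 arrays, and the median difference was 0.39. It was 0.91 without 15-day replicate 1 and 5-day replicate 2, with 6 genes higher at that p against 2.66% of all genes, among them Tnnt1, the slow troponin T, at 0.97. It was -0.0568 without 5-day replicate 3. None of 12 fast fibre genes was at that p over the 6 arrays, with a median of -0.00422.

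**Figure D5:**
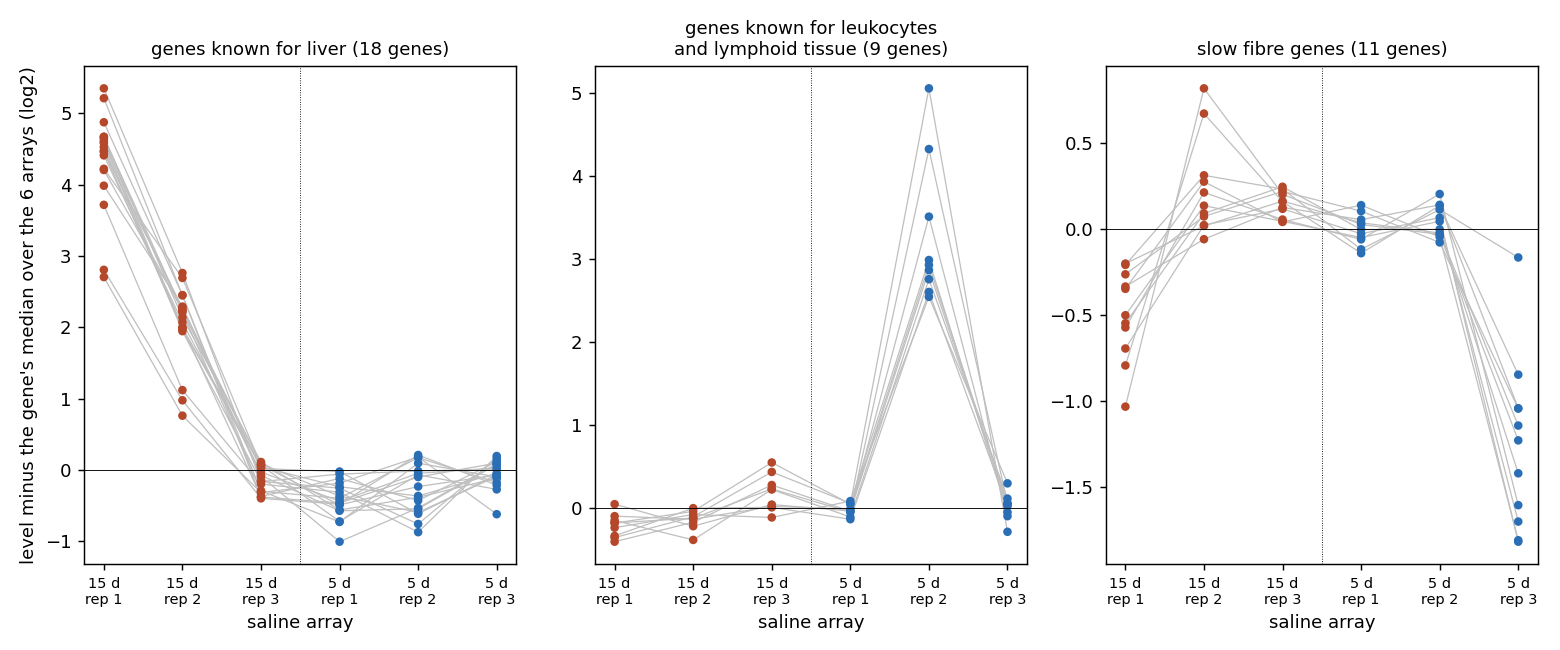
Log2 level of each gene minus its median over the 6 saline arrays, by array, with the 15-day arrays (red) left of the dotted line and the 5-day arrays (blue) right of it. Lines join the values of a gene. The 18 liver genes are highest on 15-day replicate 1 and next on replicate 2, and the 9 leukocyte genes are high on 5-day replicate 2. Of the 11 slow fibre genes, Lmcd1 is lowest on 15-day replicate 1. The others are lowest on 5-day replicate 3, with 15-day replicate 1 mostly next.

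Of the 6 largest differences in each direction, 5 of those higher at 15 days were genes known for liver and 5 of those lower were genes known for leukocytes, Svs4 and Ciart being the others. Over the 18 genes known for liver and detected on all 6 arrays, the mean linear intensity was 3644, 838 and 180 on the 15-day arrays, against 137, 165 and 195 on the 5-day arrays. The median difference was 2.45, and all 18 were higher, yet 0 were at an unadjusted p under 0.05. The median was 1.27 without the 2 arrays, and 0.10 with 15-day replicate 2 left out as well, which leaves 1 array of 15 days. Serpina1e, an antiprotease of plasma, had 11.10, 9.57 and 6.94 on the 15-day arrays, against 6.16, 6.81 and 6.61 on the 5-day arrays, Hpx, which binds haem, had 10.71, 8.12 and 5.20 on the 15-day arrays, against 5.31, 5.35 and 5.38 on the 5-day arrays, and Hamp, the iron hormone hepcidin, had 10.62, 8.09 and 6.06 on the 15-day arrays, against 5.39, 5.57 and 5.84 on the 5-day arrays. Their differences were 2.68 ± 1.22, 2.67 ± 1.38 and 2.66 ± 1.30, with limma adjusted p of 0.638, 0.704 and 0.681. Apoa2, of the same lipoprotein as Apoa1, had 12.70, 9.94 and 7.11 on the 15-day arrays, against 7.03, 7.39 and 7.58 on the 5-day arrays, and Hpx and Apoa2 overlapped between the groups. The difference of Apoa1 was 2.68 ± 1.43, and that of Apoa2 2.58 ± 1.55.

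Of the 9 genes known for leukocytes and lymphoid tissue and detected on all 6 arrays, all were lower and 0 were at an unadjusted p under 0.05. Their mean linear intensity was 141, 160 and 200 on the 15-day arrays, against 170, 1564 and 175 on the 5-day arrays. The median difference was -1.06, and -0.0546 without 5-day replicate 2. Coro1a, an actin regulator of leukocytes, had 7.05, 7.10 and 7.46 on the 15-day arrays, against 7.18, 11.55 and 7.28 on the 5-day arrays. Ikzf1, a lymphoid transcription factor, had 4.90, 4.61 and 5.05 on the 15-day arrays, against 5.22, 9.17 and 5.34 on the 5-day arrays, and Rassf5, which acts on lymphocyte adhesion, had 4.74, 4.65 and 4.96 on the 15-day arrays, against 5.07, 8.50 and 5.29 on the 5-day arrays. Neither was detected on any 15-day array, and set against the lowest detected signal Ikzf1 was at least 2.74-fold and Rassf5 at least 2.24-fold lower at 15 days, with measured means of 4.85 and 4.78, against 6.58 and 6.29. Their limma adjusted p were 0.727 and 0.729. On both probes 5-day replicate 2 alone was far above the rest, and without the 2 arrays the measured differences were -0.45 and -0.38. Cytip, of the same cells, had 5.43, 5.32 and 5.32 on the 15-day arrays, against 5.74, 10.13 and 5.07 on the 5-day arrays. Of the separate list of 11 lymphocyte markers, among them antigen receptor genes, 8 had a named probe and none was detected on 3 or more of the 6 arrays. A marker detected on 5-day replicate 2 alone would not meet that rule.

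Svs4, a protein that the seminal vesicle secretes, was detected on all 15-day arrays and on no 5-day array. Its log2 levels were 9.13, 6.18 and 7.85 on the 15-day arrays, against 4.49, 4.60 and 4.47 on the 5-day arrays. The groups did not overlap, and 15-day replicates 1, 3 and 2 followed each other from high to low. It was at least 6.35-fold higher at 15 days, set against the lowest detected signal, with measured means of 7.72 at 15 days and 4.52 at 5 days (limma adjusted p = 0.381). The measured difference without the 2 arrays was 2.53. Its relative Svs3b had 6.36, 6.44 and 6.62 on the 15-day arrays, against 5.91, 5.67 and 6.11 on the 5-day arrays, a difference of 0.57 ± 0.12 without overlap (limma adjusted p = 0.381). Of the other 6 genes of that family looked for after these values had been seen, Svs6 was detected on 4 arrays, with a difference of -0.0693 ± 0.19, and the rest on fewer than 3.

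Over all bins 17 probes were detected on the 3 arrays of 15 days and on none of 5 days, and 86 on the 3 arrays of 5 days and on none of 15 days. Such probes, among them Svs4, Ikzf1, Rassf5, Spsb4, Pdcd11 and Fam120b, met the detection rule only through the duration where they were high, so that their bounds and p are given as a description. Spsb4, a substrate adaptor of a ubiquitin ligase, had 5.28, 5.51 and 5.68 on the 15-day arrays, against 4.96, 4.91 and 4.66 on the 5-day arrays and was not detected at 5 days. It was at least 1.35-fold higher at 15 days, with measured means of 5.49 at 15 days and 4.85 at 5 days (limma adjusted p = 0.381). Inka2, an inhibitor of a kinase of the cytoskeleton, was detected on 3 of 3 arrays of 15 days and 1 of 3 of 5 days, and differed by 0.82 ± 0.19 (limma adjusted p = 0.381). Pdcd11, a factor of ribosome assembly, and Fam120b, a coactivator of PPAR gamma, were detected at 5 days alone. Pdcd11 was at least 1.21-fold and Fam120b at least 1.08-fold lower at 15 days, with measured means of 4.80 and 4.69, against 5.39 and 5.24 (limma adjusted p = 0.381 for both).

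Leaving out the 2 arrays brought other probes to the front. Besides Actc1, Tmem218 and Spsb4, the smallest p on the higher side were those of Cobll1, an actin-binding protein, and Cpa3, a protease of mast cells. Cobll1 had 6.20, 6.63 and 6.49 on the 15-day arrays, against 6.003, 6.08 and 5.92 on the 5-day arrays, and its difference was 0.60 on the 4 arrays and 0.44 on the 6. Cpa3 had 5.51, 6.16 and 6.42 on the 15-day arrays, against 5.18, 6.32 and 5.14 on the 5-day arrays, where 5-day replicate 2 lay with the 15-day arrays, and its difference was 1.13 on the 4 arrays and 0.48 on the 6. Of the 6 mast cell genes 3 were detected on all arrays, with 0 at an unadjusted p under 0.05 over the 6 arrays. On the lower side were Gstt2 and 5 others, the glucagon receptor Gcgr (-0.82 on the 4 arrays, -0.14 on the 6), the membrane protein Tmub2 (-0.68 and -0.34), and the pore-forming Prf1 (-0.56 and -0.38). B3galt4, which makes gangliosides, had -0.81 and -0.54, and Chrna2, a neuronal acetylcholine receptor subunit, -0.78 and -0.40. All limma adjusted p on the 4 arrays were at or above 0.533.

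Over all genes detected on all 6 arrays, 4.5% were higher and 3.41% lower at an unadjusted p under 0.05. The remaining lists with a gene at that p held 1 to 3 detected genes, too few to compare with these shares. None of the detected genes was at an unadjusted p under 0.05 for immediate early genes (7 genes), the cell cycle (2), the proteasome (11), ribosomal proteins (10), macrophages (8), endothelium (8), fibroblasts (8), smooth muscle and pericytes (7), the neuromuscular junction (5), white adipocytes (4), tendon and cartilage (4), Schwann cells and nerve (3), or glands (1). Brown adipocyte genes had 1 of 3 lower, keratinocyte genes 1 of 1 higher, which was Krt10, and satellite cell genes 1 of 2 lower, which was Cdh15, a cadherin of those cells, at -0.20 ± 0.0855. Erythroid genes had 1 of 3 higher, Hba-a1, alpha-globin, with 14.67, 14.50 and 14.43 on the 15-day arrays, against 14.19, 14.37 and 13.84 on the 5-day arrays and a difference of 0.40 ± 0.18. The brown adipocyte and erythroid counts were 0 without the 2 arrays. No neutrophil gene was detected on all 6 arrays. In whole muscle, fewer cells of a type and less RNA per cell cannot be told apart.

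The 20E arrays, which share no array with the saline ones but were normalized and fitted together with them, give the same contrast in other animals. Of the 12 leading higher probes 11, and of the 12 leading lower probes 12, had the same sign between 15 and 5 days of 20E, and 8 of each were at an unadjusted p under 0.05 there. Of the 1393 probes at an unadjusted p under 0.05 in saline, 79.9% had the same sign in 20E, and 23.1% had it with that p there. Over all tested probes these shares were 63.1% and 6.70%. The leading probes include several of Ciart and of Actc1. They and the 1393 probes were chosen by a p whose spread also came from the 20E arrays. Their count or share at that p in 20E is therefore not independent of the choice. Actc1 differed by 0.88 and 0.67 in 20E muscle, Ciart by -1.26, -1.39 and -0.96, G0s2 by 1.22, Hspa1a by 1.39, Dnajb1 by 0.83 and Myod1 by 0.88. Gadd45b differed by -0.76 and Gstt2 by -0.36. Svs4 differed by -0.54 and Svs3b by -0.0725. Their 20E minus saline differences were -3.74 ± 1.04 and -0.65 ± 0.17 (log2, ± SE). The unadjusted limma p of these were 0.0041 and 0.0026, and the adjusted p was 0.9999 for both. Svs4 had log2 levels of 4.42, 4.71 and 6.12 on the 15-day 20E arrays, against 6.98, 4.74 and 5.15 on the 5-day 20E arrays. Genes known for liver and for leukocytes were uneven on the 20E arrays too. Apoa1 had 7.18, 7.61 and 12.53 on the 15-day 20E arrays, against 8.32, 6.98 and 4.98 on the 5-day 20E arrays. Cd52 had 6.20, 6.54 and 6.21, against 8.71, 6.69 and 10.53. The median differences in 20E muscle were 1.81 for the liver list and -1.33 for the leukocyte list. Their part in the shares above was not tested. The clock list had 1 gene higher and 4 lower in 20E muscle, and the heat shock list 5 higher and 0 lower, against 5.04% higher and 3.96% lower over all genes detected on all saline arrays. The test of 20E minus saline differences called 0 probes, with a lowest limma adjusted p of 0.9999 and 605 probes (3.41%) at an unadjusted p under 0.05.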

How the data were processed

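Muscle RNA was measured on Illumina MouseWG-6 v2.0 BeadChips. The deposited signal intensity is not normalized and the deposited detection p-value compares each signal with negative control beads, per the file headers. A second deposited table holds the authors' log2 values, and BeadStudio 3.1.3 and limma are named in the submitters' processing notes, with roles not stated. Column codes were tied to durations by matching signal to log2 columns (rank correlation of at least 0.976 with the own column, at most 0.899 with another). No depth applies to arrays, and 3 pools a group limit the precision. Signals were corrected by normexp through the detection p-values (offset 16), quantile-normalized and log2-transformed over all 12 arrays (neqc, limma 3.58.1, R 4.3.3). limma (lmFit, eBayes, 8 residual degrees of freedom) compared groups two-sided, with Benjamini-Hochberg adjustment over 17758 probes and calls at an adjusted p under 0.05. "Without the 2 arrays" drops saline 15-day replicate 1 and 5-day replicate 2 from the fit. Of the tested probes 15241 had 1 gene symbol, 8 several and 2509 none, from GEO's platform annotation. A gene is given by its brightest probe in list counts. A probe undetected on every array of a group has a bound against the lowest detected signal. Named probes were the 12 with the smallest p in each direction among those detected on all 6 arrays, the 6 largest differences, the 6 smallest p without the 2 arrays and 2 for each direction and bin, with up to 4 genes for each list. Members and lists were chosen with earlier results of these data known. The test was run on simulated data first. Python and matplotlib drew the figures. Replicate numbers did not pair the saline arrays (correlations of deviations -0.026, 0.034 and -0.065).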

Additional observations from a re-analysis of the deposited data

How the results depend on the processing

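The count of 0 called probes in the saline comparison was 2 without background correction, 2 with an offset of 50, 2 with probes detected on all 6 saline arrays, 2 with array weights and 2 at an adjusted p under 0.10, in each case both probes of Actc1. It was 2 with median scaling (2 probes of Ciart), 4 with trend and robust variances (2 of Actc1 and 2 of Ciart) and 3 with the running number of the columns as a block (2 of Actc1 and Gstt2). It stayed 0 with the authors' log2 table, the other filters, the 6 saline arrays alone, the running numbers 1 to 6 and without the 2 arrays. Running numbers 7 to 12 held 1 saline array of each duration, and no count is given for them. Nor is a count given without 15-day replicate 2 as well. That alternative was added after seeing the data and leaves 1 array of 15 days. With the replicate block the count was 0, with a lowest limma adjusted p of 0.157. Leaving out each of the 12 arrays gave 0 to 4. The 4 came without 20E 5-day replicate 1 (Actc1 and Ciart, 2 probes each), and 1 (Actc1) without saline 5-day replicate 3. Without the 2 arrays, trend and robust variances gave 1 (Actc1, 1.03, limma adjusted p = 0.0195) in place of 0. The lowest limma adjusted p over the alternatives with at least 2 saline arrays of each duration lay between 0.000462 and 0.712. The count of 0 for 20E minus saline was 0 under every alternative run, leaving out each array in turn included (0 to 0). The 6 saline arrays alone give no such test.

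Of 78 named probes under these alternatives, 2206 of 2250 values kept direction and side of the threshold, 24 came to pass it and 20 turned round. Without the 2 arrays Cd52 was 0.37 and Coro1a 0.0508, and with 15-day replicate 2 also left out 0.67 and 0.23, Hpx -0.14 and Apoa2 -0.20. With running numbers 1 to 6 Cd52 was 0.30 and Coro1a 0.0225. With 7 to 12, which held 1 saline array of each duration, Cpa3 was -0.16, Gcgr 0.19 and Tmub2 0.0142. Gcgr was 0.42 in the authors' log2 table. Leaving out each array in turn gave -2.44 to 0.23 for Cd52 (highest without 5-day replicate 2) and -0.50 to 0.0697 for Gcgr. It gave -0.00357 to 0.57 for Atp2a2, -0.0136 to 0.58 for Tpm3, -0.0568 to 0.92 for Myh7 and -0.10 to 0.77 for Tnnt1, each lowest without 5-day replicate 3. The causes were not tested. The median difference in the dimmest bin was 0.0484 without background correction and 0.318 in the authors' table, against 0.151 here. In the brightest bin it was 0.0713 and 0.0760, against 0.0751, so that only without background correction was the dimmest bin the lower of the 2 among the 7 alternatives run for this value.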

Other observations

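Atf3, a transcription factor induced by stress, had log2 levels of 5.72, 7.50 and 6.64 on the 15-day arrays, against 5.87, 6.09 and 5.81 on the 5-day arrays. It was highest on 15-day replicate 2, and its difference was 0.69 ± 0.36 over the 6 arrays and 1.23 without 15-day replicate 1 and 5-day replicate 2 (limma adjusted p = 0.705 and 0.672). Egr1, an immediate early gene, had 8.19, 8.12 and 8.14 on the 15-day arrays, against 8.53, 9.12 and 8.30 on the 5-day arrays, lower on every 15-day array, by -0.50 ± 0.25 (limma adjusted p = 0.690). Fos, another, had 7.80, 8.32 and 8.66 on the 15-day arrays, against 8.03, 8.27 and 8.16 on the 5-day arrays, with overlap.

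Hp, which binds free haemoglobin, had 10.51, 8.66 and 7.80 on the 15-day arrays, against 7.53, 8.29 and 7.42 on the 5-day arrays, and Orm1, an acute phase protein of plasma, had 9.65, 7.51 and 5.78 on the 15-day arrays, against 5.93, 6.996 and 6.14 on the 5-day arrays. Both were highest on 15-day replicate 1, the array with the brightest liver genes, and next on 15-day replicate 2, and their part in that signal was not tested. Serpina3n, an antiprotease of inflamed tissue, had 8.55, 6.87 and 7.28 on the 15-day arrays, against 6.30, 7.95 and 6.46 on the 5-day arrays, high on 15-day replicate 1 and on 5-day replicate 2. S100a8, a protein of neutrophils, had 4.91, 5.90 and 6.29 on the 15-day arrays, against 6.88, 7.47 and 5.62 on the 5-day arrays, and was detected on 2 of the 3 arrays of 15 days and on 3 of 3 of 5 days.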
